A study of Mus musculus with 12 samples.

Results

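The genes described here encode voltage-gated ion channels, their auxiliary subunits and related potassium channels, in the striatum of SRF mutant and control mice. They were chosen by name: probe sets with exactly 1 gene symbol that begins with Kcn, Cacna or Cacnb, or is an Scn alpha or beta subunit or an Hcn gene, with Kcnip1 left out. On the array 125 probe sets of 87 such genes were present. Dim probe sets were left out by requiring a log2 signal above 4 on 3 or more of the 12 arrays, and 49 probe sets of 35 genes passed, of the 6651 genes tested in all. Each gene is given by its tested probe set of highest mean signal. The symbols also take in channels that voltage does not gate or gates only in part (inward rectifier, tandem-pore and calcium-activated potassium channels), so the group is wider than voltage-gated channels in the strict sense.

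Channels of these families set how a neuron fires. Sodium channels carry the rise of the action potential, potassium channels end it and hold the cell near rest, and calcium channels couple it to transmitter release and gene expression. Pore-forming alpha subunits assemble with auxiliary subunits that change their gating and bring them to the membrane. Medium spiny neurons, the main cell type of the striatum, rest at a very negative potential held by inward rectifier potassium channels, and their first spike is delayed by transient A-type and other potassium currents.

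Total RNA of the striatum, with the nucleus accumbens, was measured on 12 Affymetrix arrays, 1 per animal sample. The 4 groups of 3 arrays were SRF mutants 1 hour after 25 mg/kg cocaine, SRF mutants 1 hour after saline, control animals 1 hour after the same cocaine dose, and control animals 1 hour after saline. All animals were female littermates of 10 to 15 weeks that had been caged alone, handled for 5 days and injected intraperitoneally. Groups follow the sample titles. The description field contradicts them (3 arrays as saline-treated controls, 5 as cocaine-treated controls and 4 as cocaine-treated mutants), and the treatment text gives cocaine for all samples. Which part of Srf was changed, and in which cells, is not given in the sources used here, so an effect of the mutation cannot be placed in a cell type. In tissue RNA, fewer cells of a type and less RNA per cell cannot be told apart.

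Srf read 5.01 to 5.49 in the 6 arrays titled mutant and 6.97 to 7.21 in the 6 titled control (log2 signal). Of the 10 medium spiny neuron markers 4 were tested. Rgs9, a regulator of G protein signalling, was lower in mutants, by a log2 change of −0.33 averaged over saline and cocaine (SE 0.0886, limma's adjusted p = 0.0342). The other 3 were not called. The log2 of the summed signal of all 4, Rgs9 among them, was 11.6 to 11.9 in mutants and 11.8 to 11.9 in controls. Of the 8 cortical projection neuron markers 1 was tested, Mef2c, a gene that striatal neurons also express. Mef2c was lower in mutants (log2 change −0.69, SE 0.0910, limma's adjusted p = 0.000376), at 7.11 to 7.44 against 7.54 to 8.09 in controls. The 4 others on the array (Neurod6, Neurod2, Tbr1 and Fezf2) lay at 1.53 to 3.63 in every array, too near background to compare genotypes. Whether the amount of cortical tissue differed was not tested. Astrocyte, oligodendrocyte, microglia, endothelial and striatal interneuron lists had 7, 6, 6, 2 and 4 genes tested. Limma called 0 of them between genotypes over both treatments, against 10.7% of all genes. Lists this small cannot show that the mix of cells was unchanged. Gfap, an astrocyte gene, was called only with cocaine in mutants, as given beside Kcna5. The choroid plexus gene Ttr read 9.61 in replicate 3 of the cocaine-treated controls and 2.83 to 5.90 in the other arrays. Its part in the results was not tested. For the used probe sets of named channel genes, values without that array are given where a call depended on it. Calls of marker genes, channel partners, other channels and pumps, and further probe sets were not refitted without it.

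The promoter sequences below belong to Scn2a, Kcnd2 and Kcnma1, whose genotype difference was called in more than 1 probe set, as was that of Scn3b, which is named only, and show the stretch in which a short SRF-type or activity-type element next to the start site would lie. They run 5′ to 3′ on the gene's own strand, from 250 bases before to 50 bases after the annotated start (RefSeq, assembly GRCm38.p6), and capitals mark a TATA box match (TATAAA).
Scn2a, chr2:65668436-65668735, plus strand: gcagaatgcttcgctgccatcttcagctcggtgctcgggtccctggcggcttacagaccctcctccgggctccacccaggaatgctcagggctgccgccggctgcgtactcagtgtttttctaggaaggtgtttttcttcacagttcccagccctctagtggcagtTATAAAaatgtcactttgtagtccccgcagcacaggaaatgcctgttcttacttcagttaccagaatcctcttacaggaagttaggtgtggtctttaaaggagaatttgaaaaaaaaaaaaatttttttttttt
Scn2a, chr2:65620519-65620818, plus strand: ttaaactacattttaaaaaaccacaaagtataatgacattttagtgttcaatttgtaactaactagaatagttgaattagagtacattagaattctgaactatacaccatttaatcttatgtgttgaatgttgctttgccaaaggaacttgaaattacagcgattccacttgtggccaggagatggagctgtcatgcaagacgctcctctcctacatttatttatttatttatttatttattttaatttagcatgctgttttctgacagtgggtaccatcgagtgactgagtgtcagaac
Kcnd2, chr6:21215096-21215395, plus strand: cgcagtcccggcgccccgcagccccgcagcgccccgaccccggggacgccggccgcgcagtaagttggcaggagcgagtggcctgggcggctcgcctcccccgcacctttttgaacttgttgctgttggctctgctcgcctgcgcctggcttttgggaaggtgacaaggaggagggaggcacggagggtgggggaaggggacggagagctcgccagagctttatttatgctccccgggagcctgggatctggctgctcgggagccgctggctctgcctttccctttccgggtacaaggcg
Kcnma1, chr14:24004156-24004455, minus strand: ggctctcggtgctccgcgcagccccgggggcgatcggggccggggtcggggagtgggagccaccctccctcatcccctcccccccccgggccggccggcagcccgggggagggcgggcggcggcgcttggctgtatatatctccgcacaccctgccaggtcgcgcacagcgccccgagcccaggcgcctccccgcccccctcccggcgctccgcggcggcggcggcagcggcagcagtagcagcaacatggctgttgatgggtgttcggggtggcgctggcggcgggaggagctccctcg
The Kcnma1 and Kcnd2 stretches are rich in G and C (78.0% and 68.7%), whereas the Scn2a stretches have 47.7% and 33.0%, and the first of them holds TATAAA at −84 from its start. The table gave 49 promoters for 29 of the 35 genes. Scn3b, Kcna1, Kcnab3, Kcnn2, Cacna1a and Cacna1h had no promoter in it, so they were not searched. Both strands of the 49 promoters were searched for the CArG box, the core of SRF binding sites. It was found in 0 of 49, against 1.63% of the 32851 promoters in the table. The cyclic AMP response element TGACGTCA was found in 0 of 49 (1.79% of all promoters) and the EGR element GCGTGGGCG in 0 of 49 (0.612%). The AP-1 element TGACTCA was in 2 promoters of 49, those of Kcnip3 and Kcnk2 (5.2% of all promoters), TATAAA in 4 (13.6%), and TGACG, the core that TGACGTCA contains, in 4 (20.8%). Median G and C content was 60.3% in these promoters and 52.7% in all. These are letter matches in windows of this length and say nothing of binding elsewhere.

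Mutants differed from controls in a small set of channel genes in both directions. Over both treatments, 7 of the 35 genes were called (20.0%), against 9.47% of the 11102 probe sets tested and 10.7% of genes at 1 probe set per gene; the rates were set side by side without a test. The sodium channel genes Scn3b and Scn2a and the A-type potassium channel gene Kcnd2 were lower in mutants (3 genes; 5.05% of all probe sets were lower), and the potassium channel genes Kcna1 and Kcnma1 and the calcium channel subunit genes Cacnb2 and Cacna2d3 were higher (4 genes; 4.41% of all probe sets were higher). The differences were small, 1.16-fold to 1.53-fold. The median change of the 35 genes was 0.10 and that of all genes −0.02 on the log2 scale, and the median size of change was 0.15 against 0.09. In 5 of the 7 (Scn3b, Scn2a, Kcnd2, Kcna1 and Cacna2d3) no mutant array overlapped any control array, which is 14.3% of the 35 genes, against 5.17% of all probe sets tested.

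**Figure D1:**
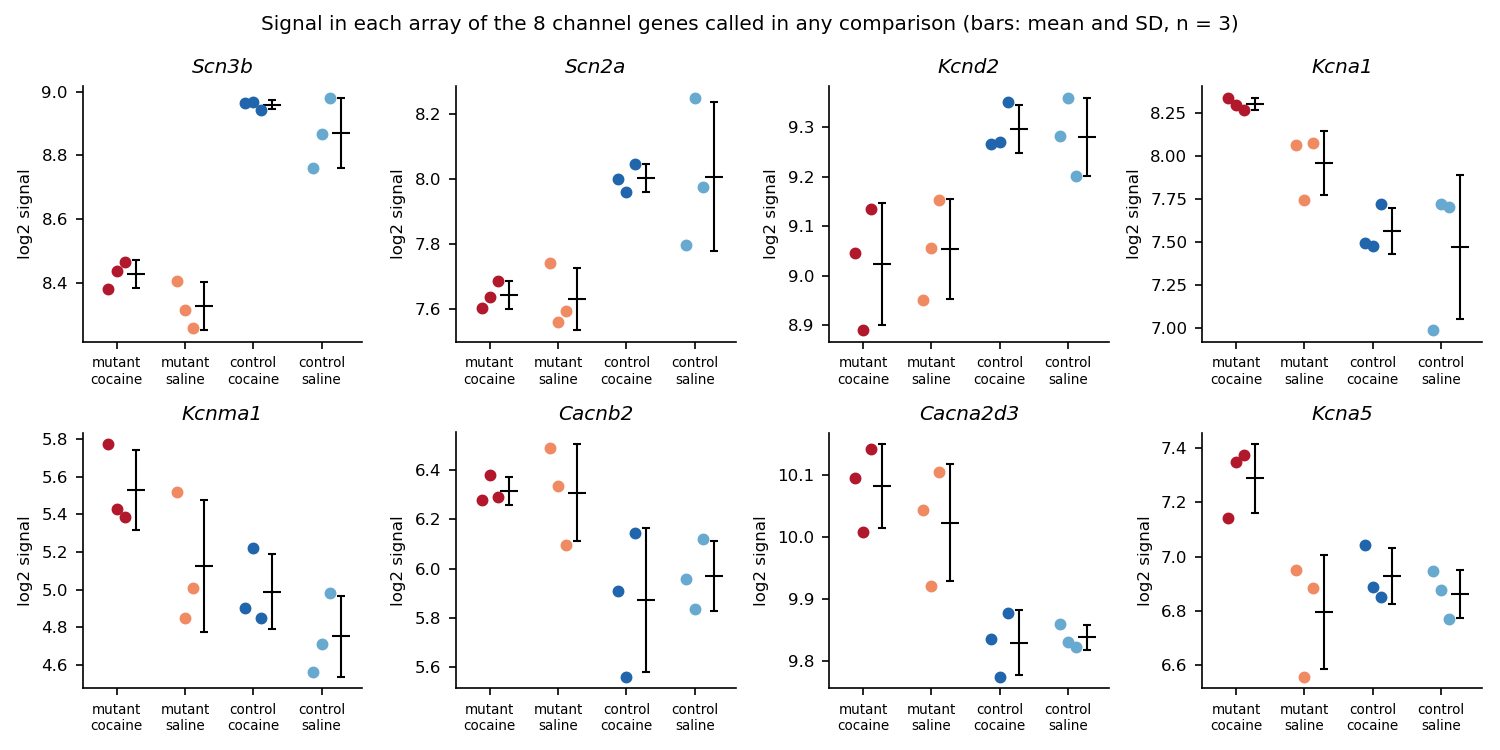
Log2 signal (vertical axes, a separate scale for each gene) in each of the 12 arrays for the 8 channel genes called in any comparison, by group; points are arrays, and the bars beside them give mean and SD of 3 arrays. Scn3b, Scn2a and Kcnd2 lie lower in all 6 mutant arrays than in all 6 control arrays, Kcna1 and Cacna2d3 lie higher, and Kcna5 is highest in mutants given cocaine.

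Scn3b, the sodium channel beta subunit gene, gave the smallest adjusted p of the 35 genes. The beta subunit binds the sodium channel pore and alters its gating and surface delivery. Scn3b read 8.38, 8.44 and 8.47 in mutants after cocaine and 8.41, 8.31 and 8.26 in mutants after saline, against 8.97, 8.97 and 8.94 in controls after cocaine and 8.76, 8.87 and 8.98 in controls after saline (log2 signal). The highest mutant array thus lay below the lowest control array, in both treatments alike. Over both treatments Scn3b was 1.45-fold lower in mutants (log2 change −0.54, SE 0.0547, 95% interval −0.66 to −0.42, adjusted p = 4.92e-05). It was lower after saline (−0.54, SE 0.0773, adjusted p = 0.00174) and after cocaine (−0.53, SE 0.0773, adjusted p = 0.00167). These comparisons share no arrays, but both used 1 estimate of the spread from all 12 arrays. The other probe set of Scn3b was also called (−0.59, SE 0.122, adjusted p = 0.00826).

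Scn2a encodes a pore-forming sodium channel alpha subunit of axons. It read 7.60, 7.64 and 7.69 in mutants after cocaine and 7.74, 7.56 and 7.59 in mutants after saline, against 8.0001, 7.96 and 8.05 in controls after cocaine and 7.80, 8.25 and 7.97 in controls after saline. The groups did not overlap, the nearest arrays being a mutant at 7.74 and a control at 7.80. The gene was 1.29-fold lower in mutants (log2 change −0.37, SE 0.0732, adjusted p = 0.00668), and its other probe set gave −0.33 (SE 0.0664, adjusted p = 0.00674). Within a treatment the used probe set did not pass, at −0.38 after saline (adjusted p = 0.0795) and −0.36 after cocaine (adjusted p = 0.0763), while the other probe set was called after saline (−0.45, SE 0.0939, adjusted p = 0.0205).

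The other sodium channel alpha genes tested were Scn8a, which carries much of the spike current at the initial segment, and Scn1a, which is prominent in fast-spiking interneurons. Neither was called: Scn8a changed by −0.22 (SE 0.0851, adjusted p = 0.132) and Scn1a by 0.20 (SE 0.0885, adjusted p = 0.181). Their further probe sets had the same signs (−0.19 and 0.11). Scn1a and Scn2a lie in 1 sodium channel gene cluster on chromosome 2 with Scn3a, Scn9a and Scn7a, whose signals did not exceed 4 in any array.

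Kcnd2 encodes the pore of the dendritic A-type potassium current. It read 9.05, 8.89 and 9.13 in mutants after cocaine and 8.95, 9.06 and 9.15 in mutants after saline, against 9.27, 9.27 and 9.35 in controls after cocaine and 9.28, 9.36 and 9.20 in controls after saline. All mutant arrays lay below all control arrays, with a gap of less than 0.1 between the closest. Kcnd2 was 1.19-fold lower in mutants (log2 change −0.25, SE 0.0611, adjusted p = 0.0212). A second probe set was called at −0.32 (SE 0.0720, adjusted p = 0.0136), and the remaining probe set gave −0.31 without a call (adjusted p = 0.0781). Without replicate 3 of the cocaine-treated controls, the array with high Ttr, the used probe set read −0.24 at an adjusted p of 0.0548.

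The proteins that assemble with this pore include the calcium-binding subunits encoded by Kcnip genes. Kcnip2, Kcnip3 and Kcnip4 gave −0.24 (adjusted p = 0.0840), −0.14 (adjusted p = 0.419) and −0.15 (adjusted p = 0.351) and were not called, and Dpp6, which encodes another partner of the pore, read 0.02 (adjusted p = 0.880). Of the remaining potassium auxiliary genes, Kcnab3, a beta subunit of Kcna channels, changed most (0.27, SE 0.0840, adjusted p = 0.0621). It exceeded the signal of 4 in 3 arrays, all from mutants, so it passed the filter through the group where it was higher, and its values are near background. Kcnab1, brightest of these 7 genes, read 0.10 (adjusted p = 0.404), Kcnab2 0.12 and Kcnmb4, a subunit of calcium-activated potassium channels, −0.10.

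Kcna1, whose product gives a low-threshold potassium current in axons, had the largest change of the 35 genes. It read 8.34, 8.29 and 8.27 in mutants after cocaine and 8.06, 7.74 and 8.07 in mutants after saline, against 7.49, 7.47 and 7.72 in controls after cocaine and 6.98, 7.72 and 7.70 in controls after saline. The 3 mutants given cocaine were the highest, 1 saline-treated control stood low at 6.98, and the groups were separated by 0.02 at their closest. Averaged over saline and cocaine, Kcna1 was 1.53-fold higher in mutants (a log2 change of 0.61, SE 0.118, adjusted p = 0.00563). After cocaine it was higher by 0.74 (SE 0.167, adjusted p = 0.0255), and after saline the difference of 0.49 did not pass (adjusted p = 0.165). The call after cocaine was lost in the fits that left out any 1 cocaine-treated mutant (log2 change 0.72, 0.74 and 0.75 without replicates 1, 2 and 3) or replicate 1 or 2 of the cocaine-treated controls (0.71 and 0.69), with adjusted p of 0.0677 to 0.0936.

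Kcnma1 encodes the large-conductance calcium-activated potassium channel. It read 5.77, 5.43 and 5.38 in mutants after cocaine and 5.52, 4.85 and 5.01 in mutants after saline, against 4.90, 5.22 and 4.85 in controls after cocaine and 4.56, 4.71 and 4.98 in controls after saline. The 3 mutants given cocaine lay above all controls, while 2 of the saline-treated mutants fell within the control range. The gene was 1.37-fold higher in mutants (log2 change 0.46, SE 0.124, adjusted p = 0.0358). The other probe set was called at 0.56 (SE 0.120, adjusted p = 0.0112) with no overlap of the genotypes. For the used probe set the call was lost in 7 of 12 fits that left out 1 array (cocaine-treated mutants 1 and 2, saline-treated mutant 1, cocaine-treated controls 1 and 3, saline-treated controls 1 and 2), with changes of 0.36 to 0.48 and adjusted p of 0.0504 to 0.0867, and with the replicate number as a block (adjusted p = 0.0556). Without replicate 3 of the cocaine-treated controls, the array with high Ttr, Kcnma1 read 0.42 (adjusted p = 0.0856). Kcnn2, a small-conductance calcium-activated channel gene, gave 0.20 (SE 0.103, adjusted p = 0.282).

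**Figure D2:**
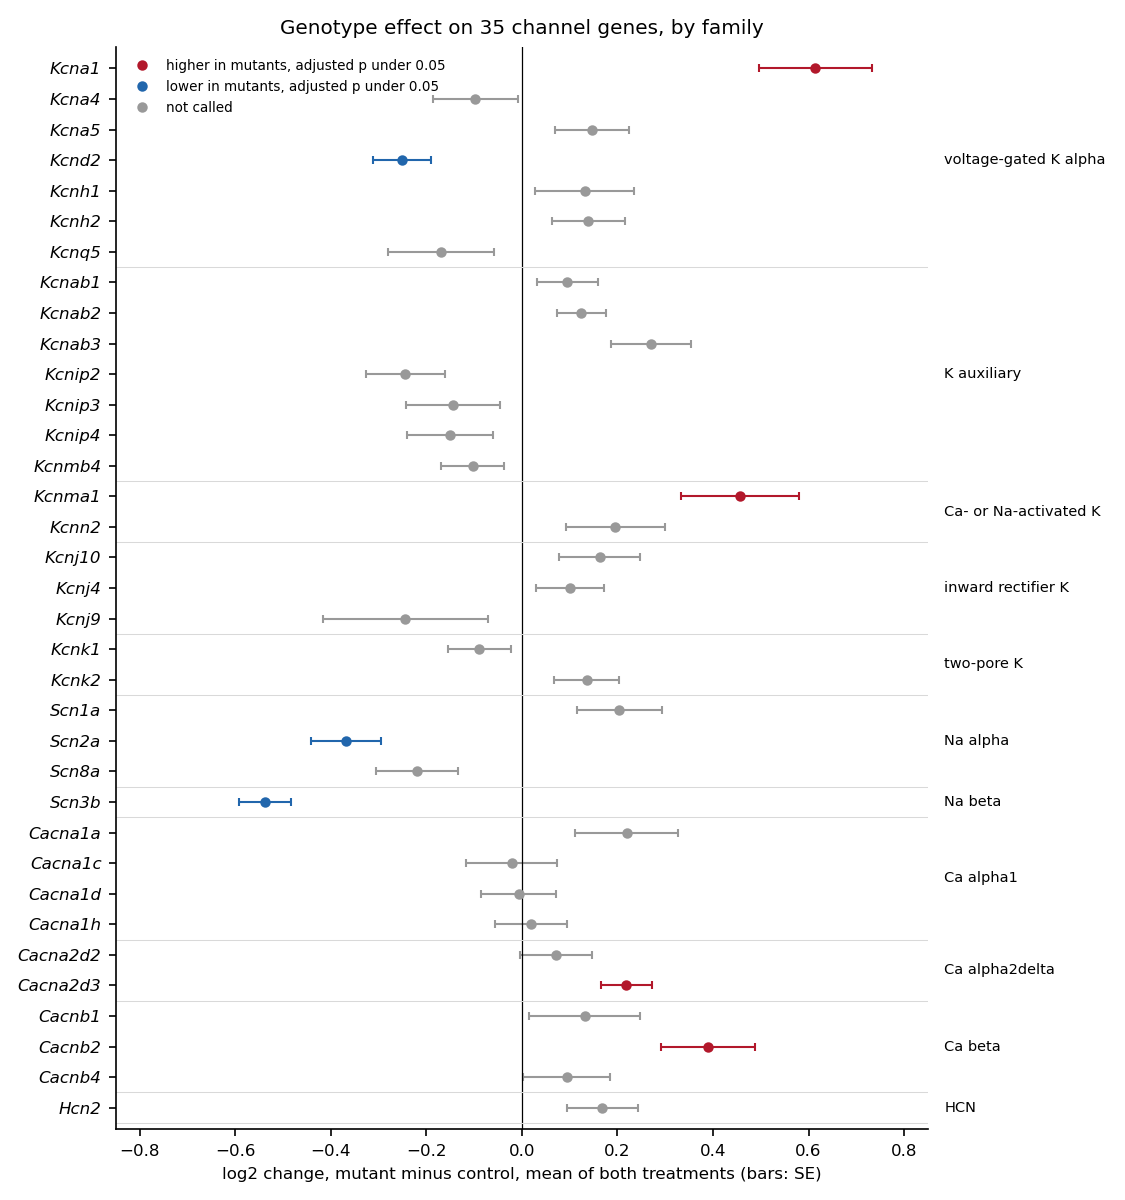
Log2 change, mutant minus control over both treatments (horizontal axis), for each of the 35 channel genes, grouped by family; bars are limma's SE and colour shows the calls. Scn3b at −0.54 and Kcna1 at 0.61 mark the extremes, and 28 of the 35 genes were not called.

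Among calcium channel genes, 2 of the 5 auxiliary subunit genes tested were called, Cacnb2 and Cacna2d3, and 0 of the 4 pore-forming genes. Of all genes 10.7% were called. The shares were not compared by a test, and these counts are too small to tell the subunit types apart. Cacnb2 encodes a cytoplasmic beta subunit that brings the pore to the membrane. It read 6.28, 6.38 and 6.29 in mutants after cocaine and 6.49, 6.34 and 6.10 in mutants after saline, against 5.91, 5.56 and 6.15 in controls after cocaine and 5.96, 5.84 and 6.12 in controls after saline. A saline-treated mutant at 6.10 overlapped the 2 highest controls. Cacnb2 was 1.31-fold higher in mutants (log2 change 0.39, SE 0.0986, adjusted p = 0.0255). The call was lost without replicate 2 of the cocaine-treated mutants (0.37), replicate 1 or 2 of the saline-treated mutants (0.34 and 0.38) or replicate 2 of the saline-treated controls (0.36), with adjusted p of 0.0541 to 0.0585.

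Cacna2d3 encodes an alpha2delta subunit, an extracellular protein that raises the number of channels at the surface. It read 10.10, 10.01 and 10.14 in mutants after cocaine and 10.04, 9.92 and 10.10 in mutants after saline, against 9.84, 9.77 and 9.88 in controls after cocaine and 9.86, 9.83 and 9.82 in controls after saline. The genotypes did not overlap, and the 6 control arrays kept within 9.77 to 9.88. Cacna2d3 was 1.16-fold higher in mutants (log2 change 0.22, SE 0.0530, adjusted p = 0.0207). The adjusted p was 0.0531 without replicate 3 of the cocaine-treated mutants (0.20) and 0.0509 without replicate 2 of the cocaine-treated controls (0.20).

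The 4 pore-forming calcium channel genes tested gave 0.22 for Cacna1a, of the presynaptic P/Q-type channel (SE 0.108, adjusted p = 0.243), 0.02 for the T-type gene Cacna1h, and −0.02 and −0.01 for the L-type genes Cacna1c and Cacna1d. The Cacna1d probe set is of a type that can match transcripts of more than 1 gene. Without replicate 3 of the cocaine-treated controls, Cacna1a was called (0.31, adjusted p = 0.0486). Its values are near background, with a mean signal of 4.29, a range of 3.92 to 4.57 and 11 arrays above 4. The remaining beta and alpha2delta genes were not called, with 0.13 for Cacnb1, 0.09 for Cacnb4 and 0.07 for Cacna2d2.

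No inward rectifier, tandem-pore or hyperpolarization-activated channel gene was called between genotypes over both treatments. Kcnj4, an inward rectifier of striatal neurons, changed by 0.10 (SE 0.0715, adjusted p = 0.443), Kcnj10, the astrocytic inward rectifier, by 0.16 (adjusted p = 0.273) and Kcnj9, a G protein-gated rectifier subunit, by −0.24 (SE 0.172, adjusted p = 0.438). Kcnj9 exceeded 4 in 4 arrays only, and replicate 1 of the saline-treated mutants stood at 4.70 against 3.55 and 3.66 in its group; without that array Kcnj9 read −0.43 (adjusted p = 0.0265), but the arrays above 4 were then 3 controls only, so it passed the filter through the group where it was higher. The leak channel genes Kcnk1 and Kcnk2 gave −0.09 (adjusted p = 0.455) and 0.14 (adjusted p = 0.251), and Hcn2, a pacemaker channel gene, gave 0.17 (adjusted p = 0.187). For Kcnk1 the second probe set had the opposite sign (0.18, adjusted p = 0.164). The other voltage-gated potassium alpha genes, Kcna4, Kcna5, Kcnh1, Kcnh2 and Kcnq5, were not called, with Kcnq5, of the muscarine-sensitive M-current family, at −0.17 (SE 0.111, adjusted p = 0.400), which became −0.07 when saline-treated mutant 1 was left out and −0.26 when saline-treated mutant 3 was.

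A second look came from further probe sets. Among the 35 genes, 13 had more than 1 tested probe set, with 14 further probe sets, and 12 of these 14 changed in the direction of the used one over both treatments. The exceptions were Kcnk1 and Cacnb1. A further probe set was called for 4 genes, Scn3b, Scn2a, Kcnd2 and Kcnma1. Probe sets of a gene share the same RNA samples, so they test the probes and not the animals. Kcna1, Cacnb2 and Cacna2d3 rest on a single tested probe set.

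**Figure D3:**
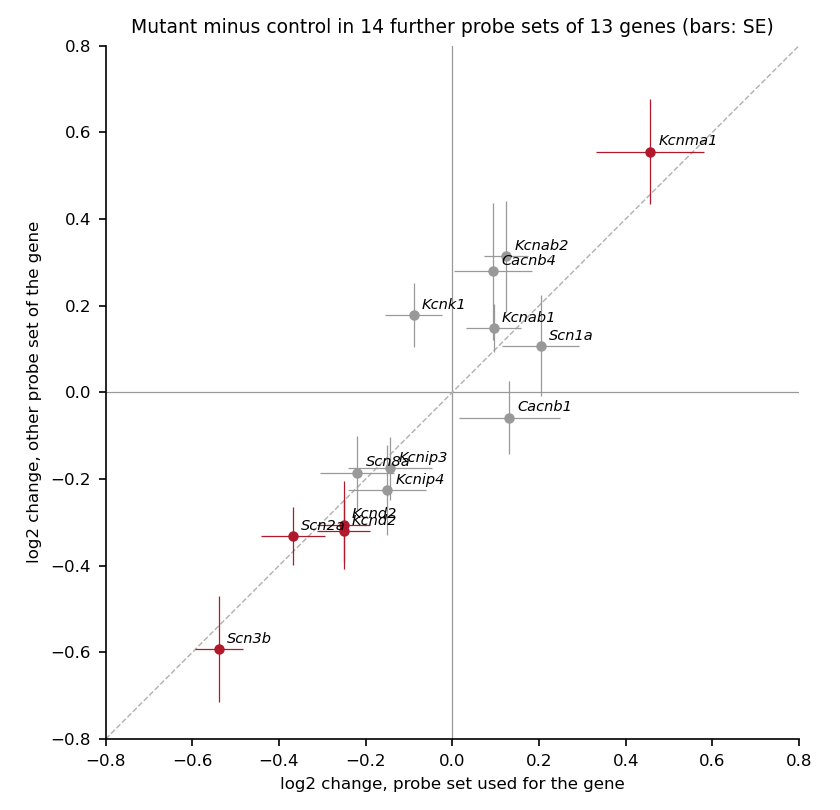
Log2 change, mutant minus control over both treatments, in the probe set used for a gene (horizontal axis) and in its other tested probe sets (vertical axis), with SE bars; the dashed line marks equality and red marks called genes. Scn3b, Scn2a, Kcnd2 and Kcnma1 lie near the line, and Kcnk1 and Cacnb1 have opposite signs.

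The genotype differences were also tested within each treatment. After saline 1 of the 35 genes was called (2.86%, against 2.98% of all probe sets tested), Scn3b. After cocaine 2 were called (5.71%, against 4.19%), Scn3b and Kcna1; these shares are close to the background. The comparisons have no arrays in common, and 31 of the 35 genes had the same sign in both (88.6%), against 68.0% of all genes. The 7 genes called over both treatments kept their sign in each. They were chosen by the mean of the saline and cocaine differences, which favours equal signs, so this is no separate support. After cocaine Cacna2d3 read 0.25, Cacnb2 0.44, Kcnma1 0.54 and Kcnd2 −0.27, and after saline these genes read 0.19, 0.34, 0.37 and −0.23. Across the 35 genes Pearson's r of the changes was 0.81, and 0.65 across all genes; genes are not independent replicates, and within a treatment a gene's value shares its arrays with all others. Without overlap of arrays were 12 of the 35 genes after cocaine (24.6% of all probe sets) and 11 after saline (18.9%).

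**Figure D4:**
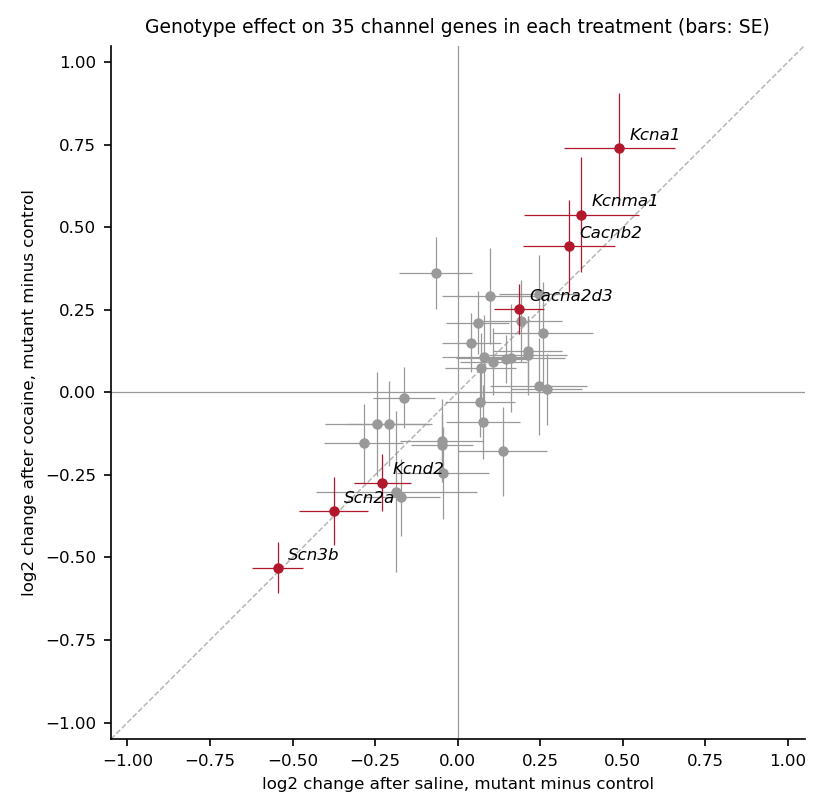
Log2 change, mutant minus control, after saline (horizontal axis) and after cocaine (vertical axis) for the 35 channel genes, with SE bars; the dashed line marks equality and red marks the 7 genes called over both treatments. All 7 lie in the quadrants of equal sign, which their choice by the mean of the differences on the axes favours.

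At 1 hour after cocaine, 1 channel gene was called, and only in the comparison within mutants. In controls 0 of the 35 genes were called by limma (0.45% of all probe sets tested were). An unadjusted p under 0.05 was reached by 0 of the 35, against 704 of the 11102 probe sets tested. The changes lay between −0.25 and 0.24. The widest 95% intervals reached −0.78 and 0.62, so small responses could not be seen with 3 arrays a group. Averaged over both genotypes 0 were called (2.31% of all probe sets). An unadjusted p under 0.05 was reached by 4 of the 35 (Kcna5, Kcnma1, Kcnn2 and Kcnk1), all positive. Of the 11102 probe sets tested 1273 reached it, so the share of channel genes is close to the background. The largest changes were 0.34 for Kcnn2 (SE 0.103, adjusted p = 0.145), 0.32 for Kcnma1 (SE 0.124, adjusted p = 0.313), −0.31 for Kcnj9 (SE 0.172, adjusted p = 0.55), 0.28 for Kcna5 (SE 0.0779, adjusted p = 0.106) and 0.22 for Kcna1 (SE 0.118, adjusted p = 0.537). Kcnj9 read −0.13 without replicate 1 of the saline-treated mutants, and Kcna1 read 0.10 without replicate 1 of the saline-treated controls.

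In mutants 1 of the 35 genes was called (2.86%, against 1.92% of all probe sets), Kcna5, which encodes a delayed rectifier potassium channel known from atrial muscle and also found in brain. Kcna5 read 7.14, 7.35 and 7.37 in mutants after cocaine, against 6.95, 6.56 and 6.88 in mutants after saline, and 7.04, 6.89 and 6.85 in controls after cocaine, against 6.94, 6.88 and 6.77 in controls after saline. The 3 mutants given cocaine were higher than all other arrays. In mutants Kcna5 rose 1.41-fold with cocaine (log2 change 0.49, SE 0.110, adjusted p = 0.0385), and in controls it read 0.06 (SE 0.110, adjusted p = 0.980). In the same comparison the astrocyte marker Gfap, 1 of 7 astrocyte markers tested, was called lower (log2 change −1.02, SE 0.217, adjusted p = 0.0303). Gfap read 3.58, 4.26 and 4.26 in mutants after cocaine, against 4.87, 4.71 and 5.58 in mutants after saline, and its part in the Kcna5 result was not tested. The difference between the genotypes' responses in Kcna5, 0.43 (SE 0.156, 95% interval 0.09 to 0.77), did not pass the test over all probe sets (adjusted p = 0.881; unadjusted p = 0.0168). The call in mutants was lost in 7 of 12 fits that left out 1 array: without cocaine-treated mutants 2 and 3 (0.46 and 0.45), saline-treated mutants 2 and 3 (0.37 and 0.54), cocaine-treated controls 2 and 3, or saline-treated control 2 (0.49 each), with adjusted p of 0.0544 (without cocaine-treated control 3, the array with high Ttr) to 0.138. It was also lost with the replicate number as a block (adjusted p = 0.0694) and with only the mutants in the fit (adjusted p = 0.129).

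Kcna1, the neighbour of Kcna5 on chromosome 6 with no protein-coding gene between them, read 0.34 with cocaine in mutants (SE 0.167, adjusted p = 0.508) and 0.09 in controls. Kcnn2 gave 0.44 in mutants (SE 0.146, adjusted p = 0.229), with 5.38, 5.31 and 5.14 after cocaine, against 4.68, 4.92 and 4.92 after saline, and 0.24 in controls. The 6 genes whose cocaine and saline arrays did not overlap in mutants were Kcna1, Kcna5, Kcnn2 and Kcnk1, higher with cocaine, and Kcna4 and Kcnmb4, lower (16.1% of all probe sets did not overlap).

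**Figure D5:**
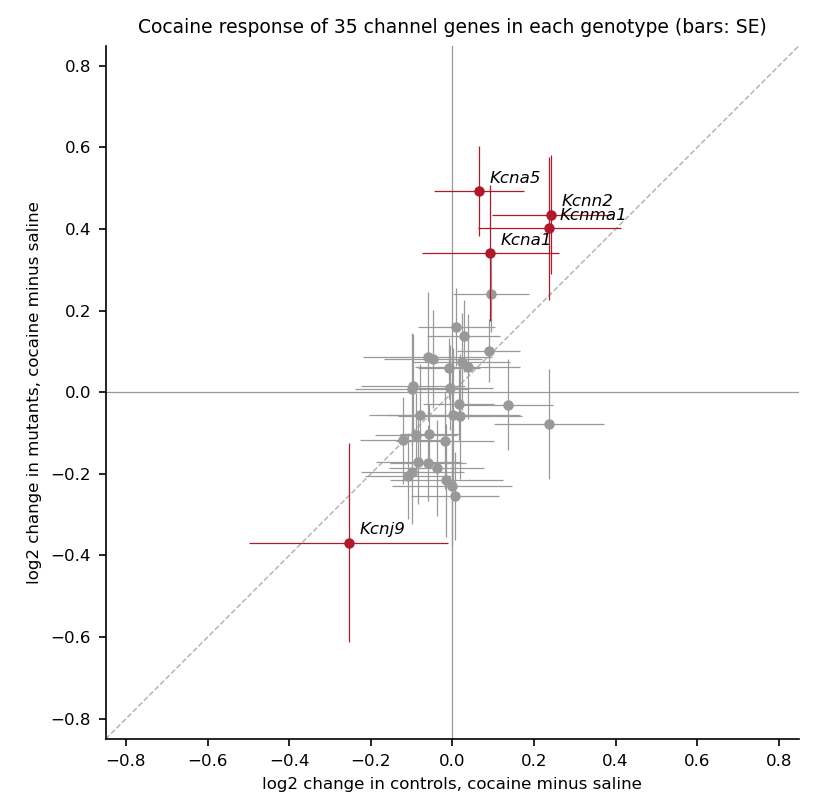
Log2 change with cocaine in controls (horizontal axis) and in mutants (vertical axis) for the 35 channel genes, with SE bars; the dashed line marks equality and red marks the 5 genes of largest change over both genotypes. Kcna5 lies farthest above the line, at 0.49 in mutants and 0.06 in controls.

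By the test of the difference itself, 0 of the 35 genes responded differently in mutants by limma (0.0721% of all probe sets were called). An unadjusted p under 0.05 was reached by 1, Kcna5, against 553 of the 11102 probe sets tested. The next largest differences in response were −0.31 for Cacna1c, −0.26 for Kcnh2, 0.25 for Kcna1 and −0.23 for Kcnh1 (adjusted p of 1.00 each). Their sizes rested on single arrays: without replicate 3 of the saline-treated mutants Cacna1c read −0.14, Kcnh2 −0.15 and Kcnh1 −0.05, and without replicate 2 of the cocaine-treated mutants Kcnh1 read −0.13. Kcnh2 exceeded 4 in 5 arrays only, among them every saline-treated mutant (4.23, 4.01 and 4.45). It thus passed the filter through the group where it was highest, and its values are near background. Kcna1 read 0.14 without replicate 2 of the saline-treated mutants, and 0.49, 0.12 and 0.13 without replicates 1, 2 and 3 of the saline-treated controls. Ordinary least squares without moderation also called 0.

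Genes that work with these channels were examined as a list of channel partners. Of 17 tested, 1 was higher and 5 were lower in mutants over both treatments, against 10.7% of all genes called, with a median change of 0.02. Lower were Fgf13, which encodes an intracellular partner of sodium channels (−0.38, SE 0.0629, adjusted p = 0.00222), and Cacng3 and Cacng4, which encode relatives of a calcium channel subunit that act on AMPA receptors (−0.43, SE 0.0708, and −0.33, SE 0.0830). Cntnap2 (−0.19, SE 0.0528, adjusted p = 0.0397) and Dlg1 (−0.23, SE 0.0600, adjusted p = 0.0271) were lower too. Higher was Stac2, an adaptor of L-type calcium channels (0.56, SE 0.109, adjusted p = 0.00581), at a mean signal of 4.02, near background. Stac2 read 4.03 to 4.57 in mutants and 3.43 to 4.03 in controls, and exceeded 4 in 7 arrays, 6 of them from mutants, so it passed the filter through the group where it was higher. Ank3, which encodes the scaffold that gathers sodium channels at the axon initial segment, was the brightest partner not called (0.06, adjusted p = 0.616). With cocaine over both genotypes 0 of the 17 were called.

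Of 14 tested genes for other channels, pumps and exchangers, 0 were higher and 2 lower in mutants over both treatments, a share near the 10.7% of all genes called, with a median change of −0.01. Both encode ryanodine receptors, which release calcium from the endoplasmic reticulum: Ryr1 changed by −1.01 (SE 0.0997, adjusted p = 3.7e-05) and Ryr3 by −0.42 (SE 0.0815, adjusted p = 0.00591). Atp1b1, the sodium pump beta subunit gene, was the brightest not called (0.05, adjusted p = 0.596). With cocaine over both genotypes 0 of these 14 were called.

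Of the 87 channel genes, 52 were not tested. Their brightest probe sets stayed at or under 3.95 in all arrays, and none exceeded 4 in any array, so their levels could not be told from background. The filter passed 7 of 20 voltage-gated potassium alpha genes, 3 of 13 inward rectifiers, 2 of 8 tandem-pore genes, 3 of 8 sodium alpha genes and 4 of 9 pore-forming calcium channel genes. Of the 35 tested, 31 exceeded 4 in all 12 arrays. The SD within a group of 3 arrays had a median of 0.13 over the 35 genes, with a range of 0.0144 to 0.634, against a median of 0.11 over all genes.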

How the data were processed

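Each array has a deposited log2 signal for every probe set, which the authors computed by GCRMA under R 2.4.1 (source: the submitters' processing notes). No source used here states the log base, read from the range of 1.26 to 13.1, nor the GCRMA options or genome build. Array medians of 3.75 to 3.78 were nearly equal, so a shift common to all genes is not visible. From these, 22690 probe sets less 64 controls were filtered (signal above 4 in at least 3 of 12 arrays), leaving 11102, and fitted in limma 3.58.1 (R 4.3.3) with a mean for each of 4 groups, moderated variances (residual df 8, prior df 4.71) and p-values adjusted over all 11102 by Benjamini-Hochberg. A call is a two-sided adjusted p under 0.05, and every adjusted p and SE is limma's. Genes were named from the platform annotation. The 7 contrasts were mutant against control and cocaine against saline, each within and averaged over the other factor, and the difference of responses. Named genes were those called, the brightest and the most changed uncalled member of each family, and the 5 largest cocaine changes and response differences. Other members are given to account for the 35 genes, and Dpp6 was added after its value was seen. Genes and lists were chosen with earlier results of these data known. The titles call the arrays biological replicates, whose number limits the precision. Same-numbered arrays did not deviate together (r of −0.14 to 0.12 over 18 pairs), so the numbers were not used to pair samples. With 3 arrays a group this check cannot exclude pairing. The fit was also run on simulated data with independent noise and genotype shifts larger than most of those called here. That run checks the code and not the calls. Alternatives tried were the filter, array weights, moderation, arrays in the fit, a replicate block, leaving out each array, quantile normalization and the mean over a gene's probe sets.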

Additional observations from a re-analysis of the deposited data

How the results depend on the processing

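Over both treatments the number of channel genes called between genotypes was 5 to 7 in the 12 fits that left out 1 array and 5 to 9 in the other alternatives. After saline, where 1 gene was called, 2 were called without the filter, with the stricter filter (above 6), with array weights, with trended and robust moderation and with the mean of a gene's probe sets, and 1 to 2 when 1 array was left out. After cocaine, where 2 were called, there were 4 with the stricter filter, 4 with array weights and 5 with trended and robust moderation, and 1 to 3 when 1 array was left out. For cocaine over both genotypes, 1 gene was called without the filter (Kcna2, lower) and 1 with array weights (Kcna5, higher), in place of 0, and 0 when any array was left out. For cocaine in mutants, 0 in place of 1 were called with only the mutants in the fit and with the replicate block, and 0 to 1 when 1 array was left out. In controls and for the difference of responses, 0 were called in every alternative run. With the replicate block 7 genes were called over both treatments, Kcnma1 being lost (adjusted p = 0.0556) and Kcnab3 gained (adjusted p = 0.0438). The calls of Scn3b, Scn2a and Kcna1 over both treatments held in every alternative run, with highest adjusted p of 0.000369, 0.0247 and 0.0378. Kcnma1 and Cacnb2 were also lost without the filter (adjusted p = 0.123 and 0.0849) and without moderation (adjusted p = 0.109 and 0.0807), Kcna1 after cocaine and Kcna5 in mutants without the filter (adjusted p = 0.102 and 0.105), where 22626 probe sets were adjusted over. Uncalled values changed sign for Kcnk1 with the mean of its probe sets (0.0443) and for Cacna1h with array weights (−0.0269) and when 1 array was left out (−0.0189 to 0.0623). Of 707 comparisons of 36 values of named genes with an alternative, 660 kept direction and side of the threshold, 35 lost the call, 7 gained it and 5 turned sign; the causes were not tested.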

Other observations

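Without the filter on dim probe sets, Kcna2, a potassium channel gene of axons and a neighbour of Kcna3, was called as higher in mutants after saline and lower with cocaine in mutants. It read 2.96, 3.01 and 2.99 in mutants after cocaine and 3.59, 3.45 and 3.43 in mutants after saline, against 2.76, 2.98 and 2.95 in controls after cocaine and 3.01, 3.00 and 2.98 in controls after saline (log2 signal). The 3 saline-treated mutants stood apart from the other 9 arrays, but all 12 values lay below the signal of 4, and Kcna2 was named after its values were seen.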
